A study of Xenopus laevis with 12 samples.

Results

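The posterior neural plate (PNP) and the lateral endoderm (LE) of the *Xenopus laevis* neurula were compared directly, on the 3 arrays titled Posterior neural plate and the 3 titled Lateral endoderm, 6 of the 12 arrays of the series. The others held eye field (EF, with the mesendoderm beneath it) and whole embryos, 3 arrays each. All embryos were untreated and at stage 15, when the neural plate is open and begins to fold. PNP was cut from the posterior plate, and LE from the lateral flank at a level midway between EF and PNP, which the study describes as non-neural. Each array took RNA pooled from many such pieces, so it averages over embryos, and the replicates came from different females on different days. The study set EF, PNP and LE beside pluripotent cells that expressed eye field factors. Here the question is which transcripts set PNP and LE apart.

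The neural plate is the sheet of dorsal ectoderm that rolls into the neural tube. At its posterior end it lies over the notochord and is flanked by presomitic mesoderm, and a growth zone there adds tissue to the trunk and tail under the influence of FGF, Wnt, Notch and retinoic acid signals. The flank of a neurula is layered. A surface epithelium of mucus-secreting, ion-transporting and multiciliated cells covers lateral mesoderm and the yolky endoderm, whose identity is set by the Sox17 and GATA transcription factors. BMP signals favour epidermis and ventral tissue, and antagonists secreted by the notochord and its precursors block them dorsally.

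The values are log2 of the deposited signal intensities, and a difference is always PNP minus LE on that log2 scale. Arrays of 1 region correlated at r = 0.979 or above across probe sets, and arrays of different regions at 0.889 to 0.905. The median SD across the 3 arrays was 0.20 in PNP and 0.16 in LE. PNP 3 and LE 3 stood somewhat apart from their replicates. Their spiked-in hybridisation controls averaged 9.66 and 9.86, against 8.94 to 9.20 on the other 4 arrays, and the β-actin control was read more strongly at its 3′ than its 5′ end by 0.81 and 2.45, against -0.53 to 0.10 in PNP 1 and 2 and 0.70 to 1.09 in LE 1 and 2. The same measure of the GAPDH control was highest on PNP 3 and lowest on LE 3 (4.13 and 2.16, against 2.55 to 3.41). The counts of differing probe sets without these 2 arrays were close to those with them (927 and 1090, against 926 and 1040). The probe sets were not all the same, as 1785 of the 1966 called with all arrays were called again. As a background ceiling served the highest signal of 27 Bacillus control probe sets on each array, 2.26 to 2.77 on these 6. A gene at or under it on all 3 arrays of a region has only a bound there, and its fold is given as "at least". Where some but not all arrays of a region were above it, the fold rests partly on signals at background.

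Marker genes of both labelled tissues were found where the labels place them, together with markers of further cell types. Of the neural plate markers, *sox2*, *sox3* and *ncam1* were higher in PNP and *zic1* was lower by the probe set read. All 5 posterior markers were higher in PNP. All 5 notochord markers and all 4 measured markers of presomitic mesoderm and muscle were also higher there, and the summed signal of the notochord markers was 10.62 to 10.97 in PNP against 5.57 to 5.81 in LE. Of 7 endoderm markers, 6 were higher in LE. So were 5 of 6 epidermal markers, 5 of 6 markers of lateral and ventral mesoderm and 3 of 5 markers of multiciliated cells and ionocytes. These 3 were the ionocyte genes *foxi1*, *atp6v1b1* and *ca12*, and no measured marker of multiciliated cells passed. The epidermal markers had the brightest sum of these lists, 12.68 to 12.91 in LE against 10.04 to 10.29 for the endodermal ones, although sums of different probe sets compare only roughly. None of the 4 forebrain markers passed the test by the probe set read, although another of *six3* was higher in PNP by 0.96 (2.98 against 2.02, adjusted p = 0.0142), and their sums stayed between 4.36 and 5.17 on all 6 arrays. The study's own markers, 5 measured of PNP and 5 of LE, lay on their own sides. Among them, *tbxt*, *cdx4*, *hoxc6*, *sox17b.1*, *gata2*, *gata5* and *gata6* were already counted above. The study showed its markers on the same arrays, so they are no independent evidence, also where they enter the counts above. The part of the mesodermal cells of PNP and of the epidermal and mesodermal cells of LE in the results was not tested, and in bulk RNA fewer cells of a type and less RNA per cell cannot be told apart.

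Of the 15491 probe sets tested, 926 (5.98%) were at least 2-fold higher in PNP and 1040 (6.71%) at least 2-fold lower, at an adjusted p under 0.05 in limma. Read as 6505 genes with 1 probe set each, 951 (14.6%) were higher and 909 (14.0%) lower at that p, and 435 (6.69%) and 484 (7.44%) also passed the 2-fold limit. The median difference of all genes was 0.04. The 3 arrays of one region lay wholly above those of the other for 43.6% of all genes, so a lack of overlap alone marks out little.

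Of the 15 largest differences in favour of PNP, that of *mmp21*, a secreted metalloproteinase, was the first. Its signals were 8.87, 9.08 and 9.09 on PNP 1 to 3 and 2.17, 2.33 and 2.63 on LE 1 to 3, a 99.2-fold difference (adjusted p = 3.15e-09). All PNP arrays lay far above all LE arrays, where 1 of the 3 signals was under the ceiling. It was followed by *pnp*, which encodes the salvage enzyme purine nucleoside phosphorylase and only by chance shares its letters with the region. Its signals were 9.46, 9.67 and 9.81 in PNP and 3.81, 2.68 and 2.86 in LE, or 92.7-fold. EF, at 8.24, and whole embryos, at 8.46, were bright as well, so LE was the region that stood low. *myf5*, a myogenic transcription factor, gave 8.77, 9.03 and 8.88 in PNP and 2.72, 2.31 and 2.48 in LE, or 83.7-fold. The other 12 of the 15 largest were *chrd.1*, *foxd4l1.1*, *myl1*, *col9a1*, *sfrp1*, *foxb1*, *hoxd9*, *admp*, *myod1*, *tbx6r*, *not* and *tbxt.2*. Their differences ran from 6.20 for *chrd.1* down to 4.60 for *tbxt.2*. Of the 15, *foxb1*, a forkhead factor of the neural plate, had the EF mean nearest to that of PNP (7.52 and 8.07).

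Of the 15 largest differences in favour of LE, the first was that of *krt12.4*, an epidermal keratin and the most different gene of all. Its signals were 2.56, 2.74 and 2.87 in PNP and 10.62, 10.88 and 10.85 in LE, or 267-fold (adjusted p = 1.40e-11). The keratin *krt12.5* followed at 176-fold and the secreted lectin *itln1* at 174-fold. In whole embryos *krt12.4* averaged 10.55, nearly the LE level, and PNP was the low region. The other 12 of the 15 were *fucolectin*, *mmp3*, *slc26a4l*, *gata6*, *vill*, *krt7*, *krt70*, *xepsin*, *grhl1*, *fgfr4*, *eps8l3* and *mid1ip1*, with differences from -6.66 for *fucolectin* to -5.30 for *mid1ip1*. Genes entered either set of 15 only if their PNP and LE arrays did not overlap, so the lack of overlap there is no result.

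**Figure D1:**
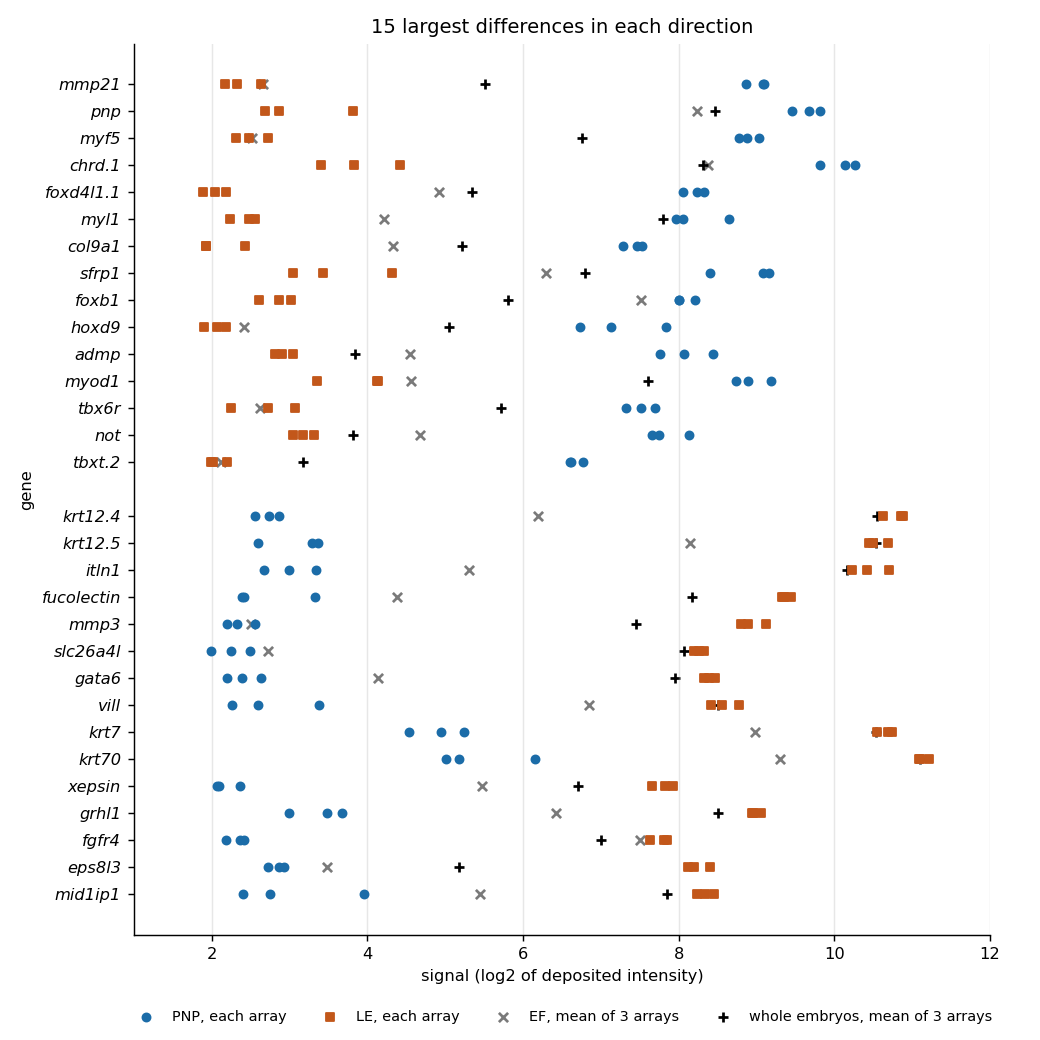
Signal of the 15 genes with the largest difference in each direction (rows), as log2 of the deposited intensity, with circles for the 3 PNP arrays, squares for the 3 LE arrays, crosses for the EF mean and plus signs for the mean of whole embryos. Rows were chosen so that PNP and LE do not overlap. For the lower set whole embryos mostly lie near LE (*krt12.4*, 10.55).

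Of 27 measured genes of the notochord and organizer, 11 were higher in PNP and 1 was lower, against 14.6% and 14.0% of all genes, with a median difference of 0.44. *chrd.1* encodes chordin, the BMP antagonist of the organizer and notochord. Its signals were 10.27, 9.82 and 10.14 in PNP and 4.42, 3.40 and 3.83 in LE, or 73.3-fold (adjusted p = 1.04e-09). Signals of *shh*, the Hedgehog ligand of notochord and floor plate, were 7.3, 7.40 and 7.38 in PNP and 2.51, 2.80 and 3.80 in LE, or 19.9-fold. The PNP arrays were close together, and LE 3 was the highest of its group. The homeobox gene *not* was 25.4-fold and *admp*, a BMP-like ligand of the dorsal midline, 35.9-fold higher. For both, the level in PNP stood far above whole embryos (*not*, 7.85 against 3.81). *tbxt*, the T-box gene of notochord and tailbud, read 6.96, 7.25 and 6.20 in PNP and 2.37, 2.29 and 2.23 in LE, or 22.7-fold. PNP 3 was its lowest PNP array, as it was for the TGF-β ligand *gdf3* (6.49, 6.48 and 5.48). *foxd4l1.1*, a forkhead factor of early neural ectoderm, was at or under the ceiling on all LE arrays and at least 59.0-fold higher in PNP. Smaller differences were seen for *foxa4* (1.54 ± 0.49, 95% interval), *fst* (1.58 ± 0.41) and *nog* (0.95 ± 0.27). *pnhd* went the other way (-0.90 ± 0.37), with EF above both. *col2a1*, a cartilage and notochord collagen, did not pass (0.34 ± 0.63). Nor did the head organizer genes *gsc*, *cer1* and *otx2*.

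Among Hox genes, those in the middle of the clusters were the ones most often higher in PNP. The 3′ genes of a Hox cluster act anteriorly and the 5′ genes posteriorly, in the order of their paralog groups. Of 11 genes of paralog groups 5 to 10, 9 were higher and none lower, against 14.6% and 14.0% of all genes. Their median was 1.97 and their range from -0.12 to 5.18. Of 4 genes of groups 1 to 4, 2 were higher with a median of 0.24, and of 4 genes of groups 11 to 13, 1 was higher with a median of 0.16. *hoxd9* read 6.73, 7.13 and 7.84 in PNP and was at or under the ceiling on every LE array, a difference of at least 30.1-fold (adjusted p = 1.72e-08). The signals of *hoxc6* were 6.39, 6.90 and 6.78 in PNP and 2.62, 2.63 and 3.64 in LE, or 13.2-fold, from a probe set that may hybridise with related transcripts. *hoxa7* was 13.3-fold, *hoxc8* at least 6.44-fold and *hoxb7* at least 4-fold higher. For *hoxc8*, *hoxb7*, *hoxd9* and *hoxa7*, PNP 3 was the highest PNP array and PNP 1 the lowest. The anterior members *hoxa2* and *hoxa3* were bright in both regions and did not pass (0.00 ± 0.52 and -0.16 ± 0.74), while their EF means were 2.93 and 2.86. A dimmer probe set of *hoxa2* was lower in PNP (2.90 against 4.10, adjusted p = 1.20e-04). Of *hoxa13* and *hoxb5*, no array of PNP or LE was above the ceiling.

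**Figure D2:**
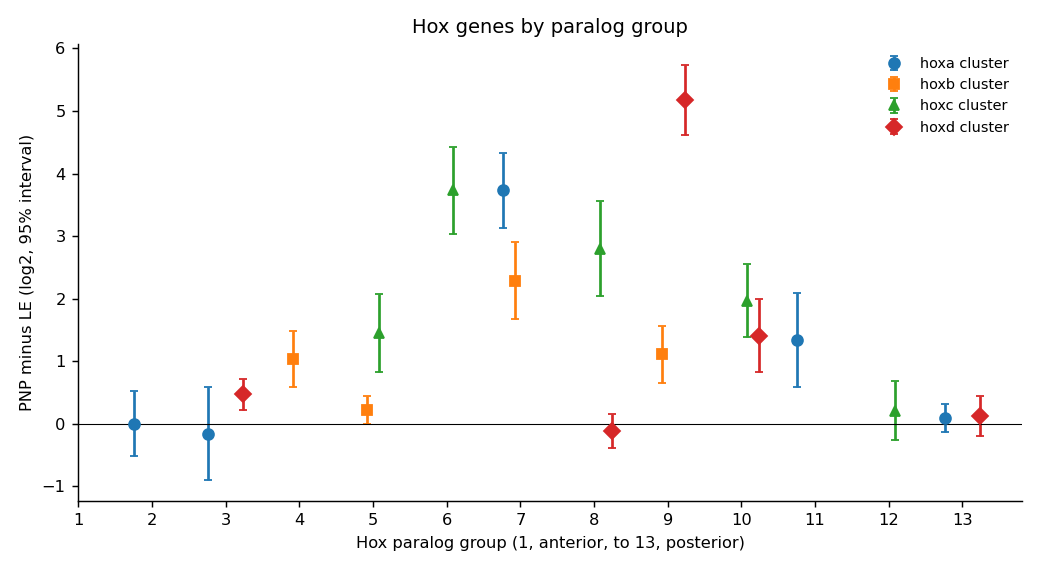
Difference between PNP and LE (vertical axis, log2, with 95% intervals from the fit) of each measured Hox gene by paralog group (horizontal axis), with a symbol for each of the 4 clusters. The genes of groups 5 to 10 reach 5.18 (*hoxd9*), whereas *hoxa2* and *hoxa3* lie at 0.00 and -0.16.

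The caudal genes, which act upstream of Hox genes in the posterior body, went with them. *cdx4* read 6.46, 6.68 and 6.54 in PNP and 3.75, 2.88 and 3.17 in LE (9.79-fold), and *cdx1* differed by 4.24-fold. The whole list of Hox and posterior patterning genes had 14 of 31 members higher (45.2%) and 3 lower (9.68%), against 14.6% and 14.0% of all genes. The 3 were *meis3*, a Hox cofactor of the hindbrain, and the homeobox genes *gbx2.1* and *gbx2.2*, known from the midbrain-hindbrain border and the plate border. *meis3* gave 5.58, 5.29 and 5.93 in PNP and 8.75, 8.88 and 8.64 in LE, or 8.93-fold lower. *gbx2.1* was 7.49-fold lower, and its whole-embryo mean (3.43) was closer to PNP than to LE. *irx2*, another factor of that territory, was 6.15-fold lower in PNP (2.67, 2.61 and 4.05, against 5.74, 5.91 and 5.53). Of the midbrain and hindbrain list, 4 of 22 were higher (18.2%, against 14.6% of all genes) and 8 lower (36.4%, against 14.0%). Among the lower were *meis3*, *gbx2.1*, *irx2* and *fgfr4*.

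Presomitic mesoderm genes were the tissue list with the highest share of members higher in PNP. Of 20, 11 were higher and 2 lower, with a median of 0.72. Of all genes, 14.6% were higher and 14.0% lower, so only the share of higher members was above that of all genes. *tbx6*, the T-box factor of presomitic mesoderm, read 7.96, 8.09 and 7.66 in PNP and 4.82, 4.18 and 4.16 in LE, an 11.4-fold difference (adjusted p = 4.48e-08). *msgn1*, its partner in the paraxial mesoderm, was 5.65-fold higher, from a LE mean (5.29) still well above the ceiling. The related *tbx6r* was 28.3-fold higher, the myogenic factor *myod1* 33.5-fold (from a probe set that may cross-hybridise) and *mef2d* 9.22-fold. *ripply2.2*, a repressor that ends the presomitic state as somites form, ran against the rest of the list. Its signals were 3.42, 3.72 and 2.86 in PNP and 7.47, 7.47 and 7.39 in LE, or 17.2-fold lower in PNP (adjusted p = 3.84e-07). EF, at 6.50, and whole embryos, at 7.31, were nearer LE. *mespa*, which acts at the front of the presomitic mesoderm, was also lower (-0.75 ± 0.33).

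Among muscle genes, 10 of 34 were higher (29.4%) and 1 lower (2.94%), against 14.6% and 14.0% of all genes. A set of 10 was under the ceiling in both regions. *myl1*, a myosin light chain, was the highest (8.06, 7.97 and 8.65 against 2.48, 2.23 and 2.56), from a probe set that may cross-hybridise. The muscle methyltransferase *smyd1* was at least 15.4-fold higher, and the calcium channel subunit *cacng1* 19.5-fold, *srl* 13.5-fold, *mylpf* 11.6-fold and the myosin chaperone *unc45b* 11-fold. PNP 3 was the highest PNP array for each of these, *myl1* included. Whole embryos were as bright as PNP or brighter for *smyd1* (6.87 against 6.27) and *mylpf* (7.66 against 5.92). *ckm*, the muscle creatine kinase, was instead lower in PNP by its brightest probe set (6.75, 6.05 and 6.38 against 8.16, 8.34 and 7.94). Its other 2 probe sets had differences of 0.83 and 0.91 and did not pass.

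Of 27 genes of the neural plate at large, 9 were higher in PNP (33.3%, against 14.6% of all genes). Another 4 were lower (14.8%, near the 14.0% of all genes), and the list median was 0.16. *sox2*, the SoxB1 factor of neural progenitors, read 5.08, 4.93 and 5.62 in PNP and 2.54, 3.73 and 4.42 in LE, or 3.13-fold (adjusted p = 0.00435). The LE arrays spread widely but stayed below PNP, and this probe set may cross-hybridise. Its other probe set differed by 1.30 with an adjusted p of 3.15e-04. *sox3* was 1.97-fold higher (5.88, 5.77 and 6.70 against 5.09, 5.21 and 5.14). *ncam1*, the neural cell adhesion molecule, was 3.17-fold and *msi1*, an RNA-binding protein of progenitors, 2.98-fold higher. For all 4, EF was above PNP (*sox3*, 7.88). *zic1*, which marks the anterior and lateral plate, was lower in PNP at 4.06, 3.92 and 4.53 against 4.95, 4.62 and 5.12 (-0.73 ± 0.46), again with EF highest at 7.09. Its call was lost without PNP 1, PNP 2, LE 1 or LE 3 (adjusted p from 0.0667 to 0.0963). The other probe set of *zic1* differed by 0.34 (3.65 against 3.32) and did not pass (adjusted p = 0.249). *zic2* was higher (0.83 ± 0.36). The neural cadherin *cdh2* (0.20 ± 0.52) and *sox11* (-0.56 ± 0.45) did not pass.

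Notch pathway genes that passed were all on the PNP side, 13 of 25 higher (52.0%) and none lower, with a median of 0.52. Of all genes, 14.6% were higher and 14.0% lower. Notch signalling selects neurons within the plate and also drives the segmentation clock of the presomitic mesoderm. Of the receptor and ligands, *notch1* read 8.22, 8.37 and 8.33 in PNP and 6.86, 6.63 and 7.08 in LE (2.74-fold, adjusted p = 3.69e-06), *dll1* was 3.29-fold and *dlc* 3.13-fold higher. *dll1* was spread within PNP (5.51, 6.11 and 6.98). Among the targets, the transcriptional repressors *hes5.3* (12-fold), *hes7.2* (7.70-fold) and *hes5.1* (4.82-fold) differed most, and *hes5.6* was at least 2.26-fold higher. *mib1*, the ligase that activates Notch ligands, and *rbpj*, the DNA-binding partner of Notch, were 2.27-fold and 1.96-fold higher, though another probe set of *rbpj* differed by -0.33 and did not pass, and its call was lost without PNP 1, LE 1 or LE 3 (adjusted p from 0.07 to 0.0934). Of the primary neurogenesis list, 12 of 36 were higher (33.3%) and 1 lower, among the higher 9 that the Notch list holds as well, such as *notch1*, *dll1* and *hes5.5*. The proneural genes *neurog2* and *neurod1* did not pass (-0.20 ± 0.30 and 0.22 ± 0.35), nor did *tubb2b* (0.32 ± 0.82). The neuronal RNA-binding protein *elavl3* was 1.72-fold higher, and the synaptic protein *snap25* 3.83-fold (4.27, 4.34 and 5.66 against 2.55, 2.96 and 2.94), though its other 2 probe sets, near background, did not pass (-0.35 and -0.31).

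**Figure D3:**
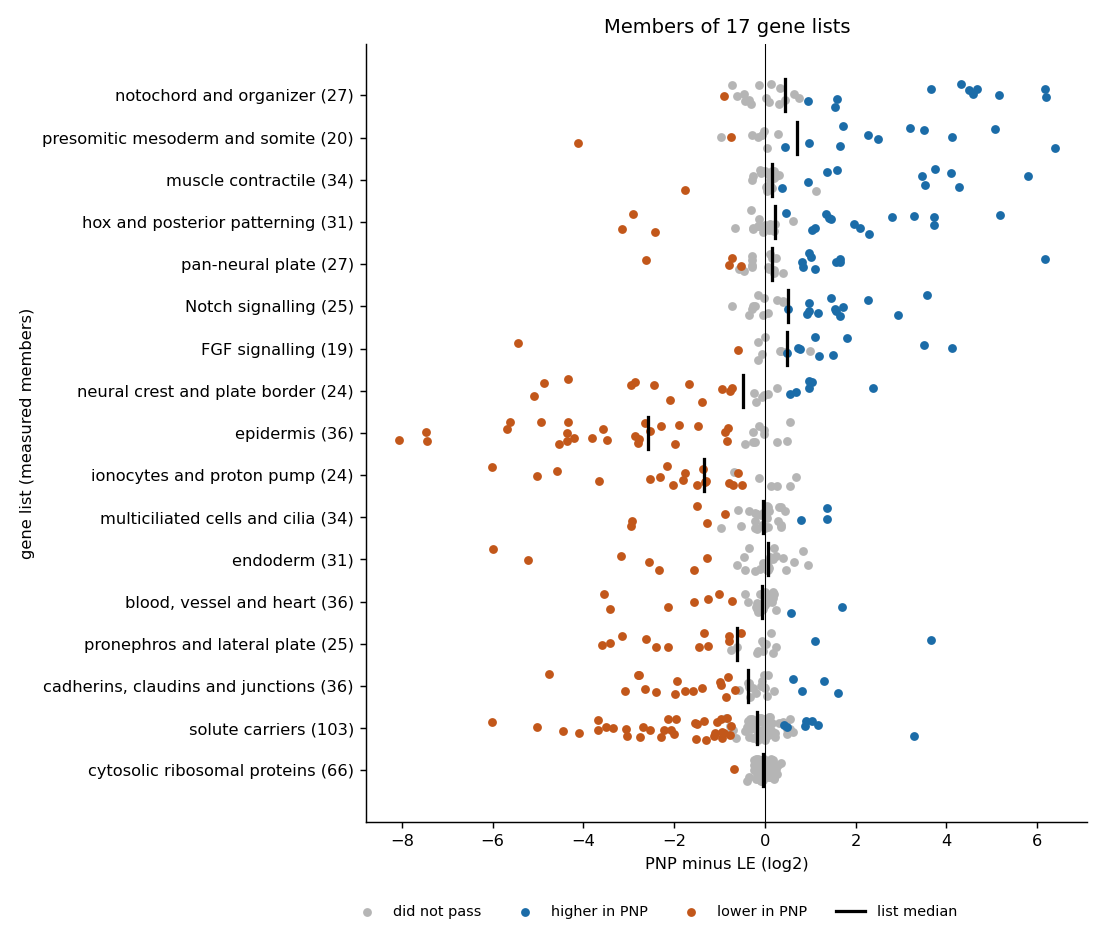
Difference between PNP and LE (horizontal axis, log2) of every measured member of selected gene lists (rows, with the number measured), blue where higher and orange where lower at an adjusted p under 0.05, grey where not, with a black bar at the list median. The epidermis median lies at -2.59 and that of ribosomal proteins at -0.05.

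Epidermal genes were the tissue list with the lowest median. Of 36 measured, 26 were lower in PNP (72.2%, against 14.0% of all genes) and none higher, with a median of -2.59. Besides *krt12.4*, *krt12.5* and *itln1*, the keratins *krt70* and *krt19* were 51.5-fold and 30.4-fold lower. *krt70* remained measurable in PNP (6.15, 5.18 and 5.01, against 11.10, 11.21 and 11.09 in LE) and its probe set may cross-hybridise. The Grainyhead factors, which direct epidermal barrier genes, were lower too. *grhl1* read 3.48, 2.99 and 3.67 in PNP and 8.96, 8.94 and 9.06 in LE (48.7-fold, adjusted p = 7.80e-10), and *grhl3* was 20.6-fold lower. The cornified envelope proteins *ppl* and *evpl* were 23.0-fold and at least 8.94-fold lower, and *dlx3*, a homeobox factor of non-neural ectoderm, at least 19.6-fold. *klf17* was lower by at least 12.1-fold, from a probe set that may cross-hybridise. *dsp*, the desmosomal plaque protein, did not pass (-0.01 ± 0.46), with all 6 arrays between 4.94 and 5.48. *tp63*, a marker of the deep epidermal layer, was barely above background and did not pass (-0.27 ± 0.37).

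Genes of the ion-transporting cells of the skin were on the same side. Ionocytes are specified by *foxi1* and pump protons and exchange anions. Of 24 genes of ionocytes and the vacuolar proton pump, 18 were lower in PNP and none higher, with a median of -1.34. Of all genes, 14.0% were lower and 14.6% higher. *slc26a4l*, related to the anion exchanger pendrin, read 2.25, 2.49 and 1.99 in PNP and 8.32, 8.19 and 8.26 in LE, or 64.7-fold lower, with 2 of the PNP signals under the ceiling. The carbonic anhydrase *ca12* was 32.6-fold lower and *foxi1* 5.77-fold. Of the proton pump, the subunits used at the cell surface were lower by the most, *atp6v1b1* by at least 19.6-fold and *atp6v0a4* by at least 8.10-fold. Several further subunits of the pump were at least 2-fold lower in PNP as well. The ubiquitous subunit *atp6v1a* did not pass (0.14 ± 0.42) and does not stand for the rest of the pump. EF was as low as PNP for *atp6v1b1* (2.09 against 2.22), *ca12* and *foxi1*. Genes of multiciliated cells and cilia had 3 of 34 members higher (8.82%, against 14.6% of all genes) and 5 lower. The share of lower members (14.7%) was near the 14.0% of all genes, and the list median was -0.03. *ccno*, which starts centriole amplification, was at least 4.94-fold lower in PNP, and the centrin *cetn4* 7.70-fold (4.57, 4.57 and 4.83 against 7.68, 7.76 and 7.37). The 3 members that were higher in PNP reached a difference of 1.37, so these 2 genes do not stand for the list.

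Endodermal genes were fewer among the LE-enriched transcripts than epidermal ones. Of 31, 7 were lower in PNP (22.6%, against 14.0% of all genes) and none higher. As many as 7 were under the ceiling in both, and the list median was 0.06. *gata6* read 2.20, 2.64 and 2.39 in PNP and 8.39, 8.33 and 8.46 in LE, or 63.5-fold lower in PNP (adjusted p = 4.61e-10). Only 1 of these PNP signals was above the ceiling. GATA6 acts in endoderm and in heart and lateral mesoderm. *darmin*, a secreted peptidase of the endoderm, was at least 28.5-fold lower, at 7.14, 7.58 and 7.29 in LE. The endodermal HMG-box factors *sox17b.1* and *sox17a* were 9.04-fold and 5.04-fold lower (*sox17b.1*, 2.85, 3.31 and 2.49 against 5.94, 5.71 and 6.52), and *gata5* was 5.89-fold lower. For *sox17b.1*, *sox17a* and *darmin*, whole embryos were at or near the LE level (6.15, 4.89 and 7.92). *a2m*, a serum protein gene of ventral endoderm, was bright in both regions and 2.43-fold lower in PNP. *gata4* (-0.61 ± 0.56) did not pass. *foxa1* (0.64 ± 0.60) and *vegt* (0.95 ± 0.92), the T-box gene of endoderm and mesoderm, did not pass either by the probe sets read. By its read probe set *vegt* was bright in both PNP (9.19, 9.03 and 8.39) and LE (8.20, 7.86 and 7.68) but not in EF (3.65). Another probe set of *vegt*, near background, was higher in PNP by 0.47 (2.62 against 2.15, adjusted p = 0.0321).

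Genes of lateral mesoderm were also more often on the LE side. Of 25 genes of the pronephros and lateral plate, 12 were lower in PNP (48.0%) and 2 higher (8.0%), against 14.0% and 14.6% of all genes. The list median was -0.62. *foxf1*, the forkhead factor of lateral plate and gut mesoderm, read 2.57, 2.64 and 3.05 in PNP and 5.20, 5.19 and 5.08 in LE (5.27-fold, adjusted p = 2.53e-07). *hand1* and *osr1* were 2.39-fold and 2.55-fold lower, and *pdgfra*, a receptor of migrating mesoderm, 2.72-fold, from a probe set that may cross-hybridise. In the list of blood, vessel and heart genes, 7 of 36 were lower (19.4%) and 2 higher (5.56%), against 14.0% and 14.6% of all genes. *gata2* (11.6-fold) and *gata3* (10.6-fold) led, both of which also act in non-neural ectoderm. *sox7*, an endothelial and endodermal Sox factor, was 2.98-fold lower. Globin transcripts were near background, and *hba3* was at least 1.19-fold lower, a call lost without PNP 1 or LE 2 (adjusted p of 0.0573 and 0.0589). *lmo2*, a blood and vessel cofactor, was higher in PNP (3.99, 3.90 and 5.52 against 2.60, 2.63 and 3.04).

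Several transcription factors of the plate border and neural crest were also lower in PNP. Of the 24 genes of that list, 12 were lower and 6 higher. Both shares were above those of all genes (14.0% lower and 14.6% higher). *ets1* read 3.08, 3.12 and 2.56 in PNP and 8.13, 8.02 and 7.92 in LE, or 34.3-fold lower (adjusted p = 7.69e-09). *id2*, a BMP-responsive inhibitor of helix-loop-helix factors, was 29.0-fold lower, *msx1* 7.66-fold, *tfap2a* 7.28-fold and *tfap2b* 5.45-fold. Many of these also act in epidermis. Of the factors closer to crest itself, *sox9* (3.21-fold) and *snai2* (1.93-fold) were lower and *foxd3* was 2.06-fold higher, while *sox10* did not pass (-0.23 ± 0.37). *pax3* was bright in both and lower by 0.77 in PNP by its brightest 2 probe sets, by 3.19 by another that may cross-hybridise (2.87 against 6.06), and did not pass by 2 dim ones. The extracellular matrix protein *sparc* was 5.24-fold higher (9.08, 8.94 and 9.41 against 7.03, 6.53 and 6.70). Another probe set of *sparc* was higher by 4.63 (9.14 against 4.51, adjusted p = 7.7e-09). Of 22 forebrain and eye genes, 2 were higher in PNP and 2 lower (9.09% each, against 14.6% and 14.0% of all genes). The higher ones, the zinc finger factors *fezf2* (0.73 ± 0.40, with an adjusted p of 0.051 without LE 2) and *fezf1* (0.61 ± 0.31), were dim, and the lower ones were homeobox factors. *emx2* read 2.69, 3.05 and 3.29 in PNP and 7.58, 7.63 and 7.84 in LE, or 25.5-fold lower (adjusted p = 2.54e-07), and its LE level exceeded that of EF (6.59). *otx1* was 5.26-fold lower in PNP, with EF far above at 9.60. *otx2*, which marks the forebrain, did not pass (-0.43 ± 0.76).

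Of 49 genes of the BMP pathway, 11 were higher in PNP (22.4%, against 14.6% of all genes). Another 7 were lower (14.3%, close to the 14.0% of all genes), and most roles held genes of both directions. Among the ligands, *bmp4* read 3.96, 3.65 and 3.79 in PNP and 5.97, 5.76 and 6.05 in LE (4.37-fold lower, adjusted p = 2.29e-06), and *bmp2* and *bmp7.1* were 2.13-fold and 2.09-fold lower. The ligands *admp*, *gdf3* and *nodal* were higher (*nodal*, 5.66, 4.84 and 4.30 against 2.73, 2.69 and 2.88, or 4.48-fold). Of the antagonists, *chrd.1*, *fst* and *nog* were higher in PNP, and *fstl1*, a follistatin relative, was 3.11-fold higher. Receptors went both ways, *acvr1* 2.80-fold higher and *bmpr1a* 2.08-fold lower. Another probe set of *acvr1* differed by 0.41 and did not pass (adjusted p = 0.233). For *bmpr1a* another was lower (-0.76), and dimmer ones did not pass (0.07 and -0.09). The targets *id2* and *msx1* were lower in PNP, but the targets *ventx1.1*, *smad6*, *smad7* and *id3* did not pass by the probe sets read, with differences from -0.20 to 0.32. A further probe set of *smad7*, near background, and a pair of *id3* were higher in PNP (0.56, 0.45 and 0.54, adjusted p of 0.0289, 0.0362 and 0.00617).

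Among Wnt genes, 10 of 51 were higher in PNP (19.6%) and 5 lower (9.8%), against 14.6% and 14.0% of all genes, with a median of 0.02. The secreted antagonists pointed in opposite directions. *sfrp1* read 9.08, 9.16 and 8.40 in PNP and 4.32, 3.43 and 3.05 in LE (38.9-fold higher, adjusted p = 2.82e-06), whereas *sfrp2* was 4.83-fold lower (5.15, 5.29 and 5.27 against 7.29, 7.60 and 7.64). Both were measured in EF, *sfrp2* at 9.31. Some ligands and parts of the planar polarity branch, which drives convergence and extension of the dorsal tissues, were higher in PNP. *wnt11b* gave 6.43, 6.78 and 6.86 in PNP and 3.49, 3.04 and 3.26 in LE (10.8-fold), *prickle1* was 4.37-fold, *fzd2* 2.94-fold and *wnt5a* 1.94-fold higher. Another probe set, annotated apart under a variant of the *wnt5a* symbol, was 2.97-fold higher. *vangl1*, of the planar polarity branch, was 4.71-fold lower. *wnt8a* (-0.96 ± 1.05), *axin2* (0.48, though 0.63 with an adjusted p of 0.0477 by another probe set) and *ctnnb1*, which encodes β-catenin (-0.28 ± 0.30), did not pass. *fzd10* was 2.47-fold lower by the probe set read, and another of its probe sets, near background, was higher by 0.54.

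Of 19 FGF pathway genes, 9 were higher (47.4%) and 2 lower (10.5%), against 14.6% and 14.0% of all genes. The list median was 0.49. *fgf8*, the main FGF of the tailbud, read 8.89, 9.17 and 9.15 in PNP and 5.0, 4.85 and 5.0 in LE (17.4-fold, adjusted p = 6.30e-09), and its other 2 probe sets were higher as well. *fgf20* was at least 9.65-fold higher. Of the known transcriptional targets of the pathway, *egr1* (3.53-fold), *spry2* (2.83-fold) and *etv4* (2.16-fold) were higher, but *dusp6* did not pass (0.36). Of the receptors, *fgfr1* was 1.72-fold higher. The receptor *fgfr2* did not pass by the probe set read (0.00 ± 0.68), but its other probe set was lower (-0.77, adjusted p = 0.00623). *fgfr4* read 2.19, 2.37 and 2.42 in PNP, never above the ceiling, and 7.63, 7.81 and 7.85 in LE, at least 38.3-fold lower (adjusted p = 4.62e-10). Its other 2 probe sets differed by -1.89 and -1.55, and EF was at the LE level (7.50).

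Of 17 retinoic acid genes, 3 were higher in PNP (17.6%) and 2 lower (11.8%), near the shares of all genes. The 2 lower ones were enzymes that make retinoic acid from retinol. *aldh1a2* read 5.40, 5.17 and 4.26 in PNP and 8.57, 8.59 and 8.42 in LE, or 12-fold lower (adjusted p = 9.31e-07), and *rdh10* gave 5.35, 5.17 and 4.85 against 8.52, 8.51 and 8.28, or 9.96-fold lower. The receptor *rarg* was 3.58-fold higher in PNP, from a probe set that may cross-hybridise. *cyp26a1*, which degrades retinoic acid, was 1.98-fold higher (6.20, 6.25 and 6.78 against 5.22, 5.68 and 5.38), and *rara* 1.52-fold. The remaining 12 did not pass. In the Hedgehog pathway, the 19.9-fold difference in *shh* was not matched by its receptor and target *ptch1* (0.16 ± 0.32), which was near background, and *gli3* was lower by 0.90, which did not pass without PNP 1, PNP 2 or LE 3 (adjusted p from 0.0517 to 0.0528). Of Eph genes, the receptor *epha2* was 8.34-fold higher in PNP (7.94, 8.05 and 8.17 against 5.49, 5.15 and 4.35) and the ligand *efna4* 2.35-fold lower.

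**Figure D4:**
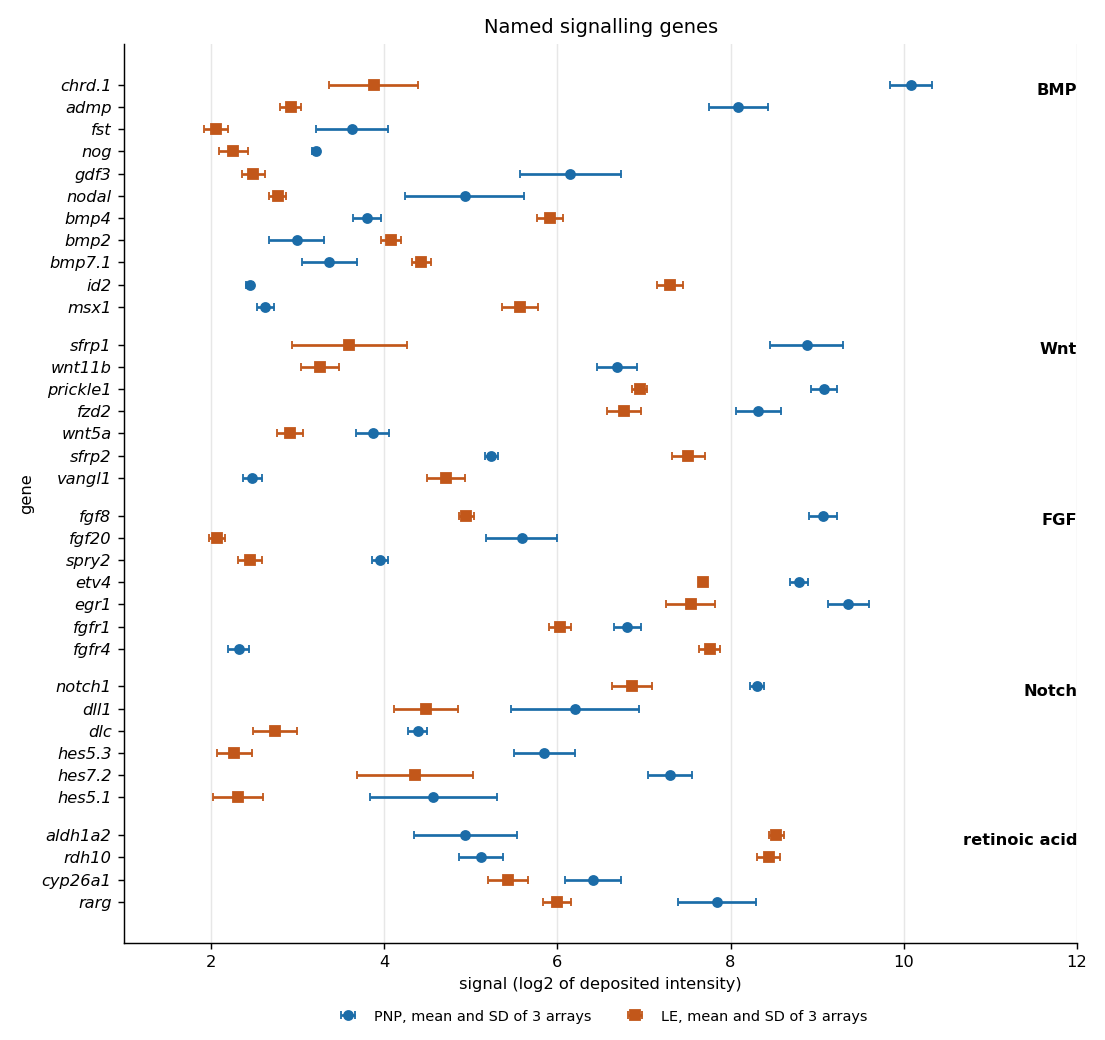
Mean signal in PNP (circles) and LE (squares) of named signalling genes, as log2 of the deposited intensity (horizontal axis), with bars of 1 SD over 3 arrays and genes grouped by pathway. The retinoic acid enzymes *aldh1a2* and *rdh10* lie at 8.53 and 8.44 in LE and at 4.94 and 5.12 in PNP, while *fgf8* lies at 9.07 in PNP and 4.95 in LE.

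Matrix genes were more often higher and junction genes more often lower in PNP. Of 59 matrix and integrin genes, 14 were higher in PNP (23.7%) and 6 lower (10.2%), against 14.6% and 14.0% of all genes. *col9a1*, a collagen of notochord and cartilage, was 40.2-fold higher (7.29, 7.53 and 7.46 against 2.43, 1.93 and 1.93, with 2 LE arrays under the ceiling), the fibrillin *fbn3* 12.6-fold, the integrin subunit *itga3* 5.54-fold and the membrane metalloproteinase *mmp14* 5.06-fold. Fibronectin, *fn1*, was among the brightest in both and did not pass (0.21 ± 0.39), while another of its probe sets was higher by 0.44 (adjusted p = 0.0229). *mmp3*, another metalloproteinase, was 95.4-fold lower in PNP (2.56, 2.20 and 2.32 against 9.12, 8.80 and 8.89). Among 36 cadherins, claudins and junction genes, 16 were lower in PNP (44.4%) and 4 higher (11.1%), with a median of -0.37. The gap junction protein *gjb2* was 26.9-fold lower (6.01, 4.82 and 5.49 against 10.06, 10.14 and 10.39), the epithelial cadherin *cdh1* 6.82-fold, *cldn4* 6.91-fold and *cldn7* 3.85-fold. Other probe sets of *cldn7* differed by -1.25 (adjusted p = 0.00123) and by -0.40, which did not pass. The protocadherin *pcdh8l* was 8.46-fold lower. *cdh3*, the cadherin carried over from the egg, was bright in both and slightly higher in PNP (0.63 ± 0.25), and the connexin *gja7* was 3.04-fold higher.

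Membrane carriers were more often lower in PNP, 34 of 103 (33.0%) against 7 higher (6.8%), with a median of -0.17. Of all genes, 14.0% were lower and 14.6% higher. *slc3a2* and *slc7a5* encode the chains of a heterodimeric transporter of large neutral amino acids. *slc3a2* read 2.35, 2.20 and 2.51 in PNP and 6.23, 6.72 and 6.42 in LE (17.2-fold lower, adjusted p = 4.58e-08), and *slc7a5* was 5.80-fold lower. *slc7a8*, an alternative partner of *slc3a2*, was 10.2-fold lower. The carnitine and organic cation transporters *slc22a4* and *slc22a5* were 32.5-fold and 12.8-fold lower, and the vesicular monoamine transporter *slc18a1* 21.8-fold. On the PNP side stood the peroxisomal carrier *slc25a17* (9.75-fold, though its other probe set differed by -0.49 and did not pass), the nucleoside transporter *slc29a2* (2.27-fold) and the glucose transporter *slc2a1* (2.07-fold, with an adjusted p of 0.0509 without LE 3). Another probe set of *slc2a1* was higher by 3.30 (6.10 against 2.80, adjusted p = 4.27e-08).

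Of the lists of general cell machinery, that of cytosolic ribosomal proteins differed least. Of 66 cytosolic ribosomal protein genes, 65 did not pass and all lay between -0.69 and 0.36, with a median of -0.05. DNA replication genes had 7 of 48 members lower in PNP (14.6%, near the 14.0% of all genes) and 2 higher (4.17%, against 14.6%). Their median was -0.20, and the differences named here were small (*pcna*, -0.42 ± 0.24, and *mcm2*, -0.56 ± 0.31). The call of *pcna* was lost without LE 1 or LE 2 (adjusted p of 0.0574 and 0.0637). Of 53 mitotic genes, 6 were higher and 6 lower (11.3% each, against 14.6% and 14.0% of all genes). The largest differences were those of *plk4*, the kinase of centriole duplication, 3.12-fold lower in PNP, and the centromere protein *cenpp*, 3.00-fold higher, and the mitotic inhibitor kinase *wee1* was 2.44-fold higher. *mki67*, a marker of cycling cells, did not pass (0.30 ± 0.33). Splicing factors had 9 of 54 higher and 1 lower, and the proteasome 6 of 37 higher and 2 lower. The respiratory chain had 7 of 56 higher and 2 lower. In each of these lists the share of higher members was near the 14.6% of all genes. The share of lower members was under the 14.0% of all genes. *sdhb*, a subunit of succinate dehydrogenase, stood outside its list. It read 5.04, 4.55 and 4.18 in PNP and 8.63, 8.59 and 8.44 in LE, or 15.6-fold lower (adjusted p = 4.41e-07), while another subunit, *sdha*, was higher by 0.80, a call lost without PNP 1 or LE 3 (adjusted p of 0.0695 and 0.0632). *sdhb* was read from its only probe set.

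A few groups outside the lists were chosen after their values were seen, and no count or test is attached to them as groups. Several enzymes and chaperones of collagen maturation were higher in PNP. *serpinh1*, the collagen chaperone, read 7.99, 7.97 and 7.85 in PNP and 4.20, 3.92 and 3.72 in LE (15.9-fold), the lysyl oxidase *loxl1* differed by 11.6-fold, the prolyl isomerases *fkbp9* and *fkbp10* by 7.85-fold and 6.61-fold and the prolyl hydroxylase *p4ha2* by 4.22-fold. The endoplasmic reticulum proteins *rrbp1* (13.2-fold), *rcn3* (7.26-fold) and *ckap4* (5.62-fold) were higher too. Both *fkbp9* and *ckap4* had a dimmer probe set of the opposite call (-2.60 and -1.58), and the mean over the probe sets of *fkbp9* was -0.09. *p4hb* did not pass (-0.31), and *pcolce* was lower by 0.49, a call lost without LE 2, LE 3, PNP 2, PNP 3 or EF 2 (adjusted p from 0.0509 to 0.144). Genes of hyaluronan metabolism went both ways. *has1*, a hyaluronan synthase, read 6.05, 4.83 and 4.70 in PNP and 9.48, 9.53 and 9.65 in LE (20.5-fold lower), and of the enzymes that make its sugar precursors, *gfpt2* was lower by 11.4-fold, *gfpt1* by 6.35-fold and *ugdh* by 2.50-fold, although another probe set of *ugdh* differed by 0.27 and did not pass. Of the other such enzymes, *ugp2* was at least 1.36-fold higher in PNP, a call lost without LE 2 (adjusted p = 0.0603), and *uap1* did not pass (-0.45). The hyaluronidase *hyal2* was 6.85-fold higher and the hyaluronidase *spam1* at least 3.68-fold lower. *has2* did not pass (0.55 ± 0.56). Some genes linked to pluripotent and growth-zone progenitors were higher in PNP, *tdgf1.3*, a Nodal co-receptor, by 12.7-fold, *pou5f3.2*, a frog relative of Oct4, by 4.89-fold (7.59, 7.44 and 6.66 against 5.23, 4.81 and 4.78), *lin28a* by 3.32-fold and *lin28b* by 2.83-fold. *mycn* was 2.49-fold lower, with an adjusted p of 0.0549 without PNP 2, and *pou5f3.1* (-0.47) did not pass.

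EF and whole embryos, which entered the fit only through its estimate of the spread, gave a level to set beside both regions. Of the 484 genes at least 2-fold lower in PNP, 371 had a whole-embryo mean between the regions, and in 60 of the 484 it was nearer PNP than LE. PNP lay at least 2-fold under whole embryos for 378 of the 484, and LE at least 2-fold over them for 47. Of the 435 genes higher in PNP, the whole-embryo mean was nearer PNP in 192 (44.1%, near the 41.2% of all genes). PNP was at least 2-fold over whole embryos for 182 of the 435 and LE at least 2-fold under for 142. EF, the other neural piece, was nearer PNP for 340 (70.2%) of the genes lower in PNP and for 159 (36.6%) of those higher, against 50.1% of all genes. *myf5*, *mmp21* and *tbxt* were near background in EF (2.52, 2.66 and 2.28), whereas *fgfr4* (7.50) and *gjb2* (9.76) were bright in EF.

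**Figure D5:**
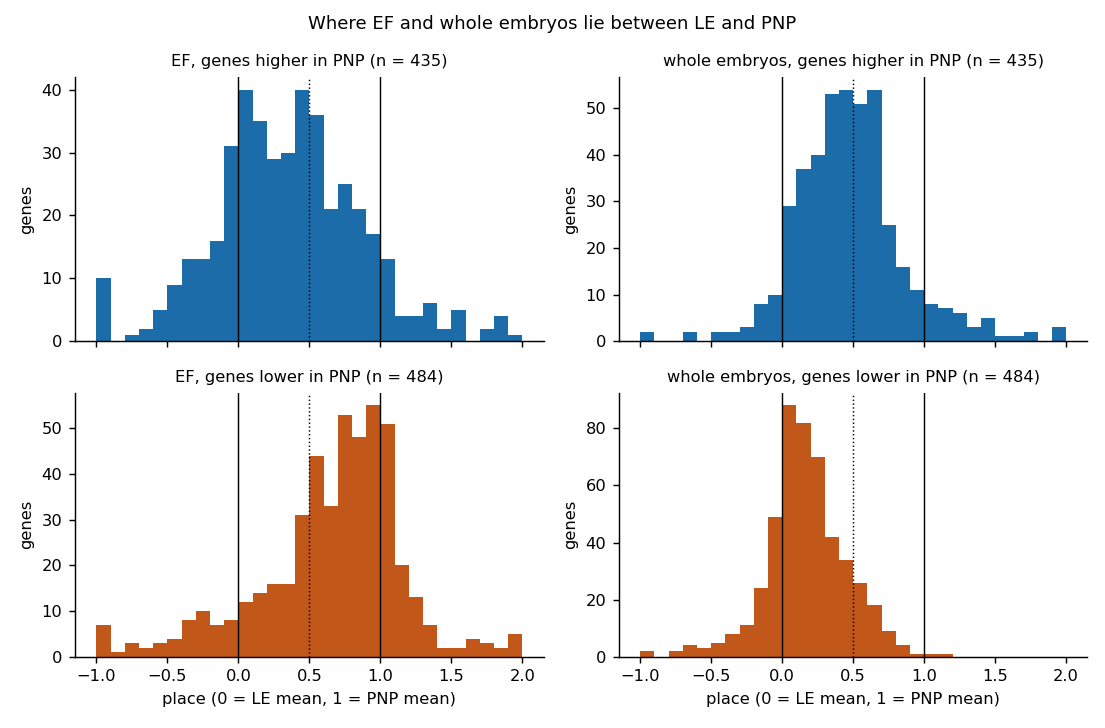
Place of EF (left) and whole embryos (right) between LE (0) and PNP (1) for genes at least 2-fold higher (top, 435 genes) and lower (bottom, 484 genes) in PNP, as the number of genes per bin of the scaled mean, with values beyond -1 and 2 in the end bins and a dotted line midway. For the lower genes EF piles up near PNP and whole embryos near LE.

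Repeat measurements within the array bore on the calls. Of 2012 genes with several probe sets, all differences had the same sign in 58.7%. Among the genes at least 2-fold higher by the probe set read, this held for 117 of 161 (72.7%), and another probe set was called the same way for 52 and the opposite way for 4. Among the lower genes it held for 117 of 161, with 63 called the same way and 1 the opposite way. Of 81 genes described here that passed and had several probe sets, 59 had another that passed the same way and 4 another that passed the opposite way. Of 18 that did not pass, 8 had another probe set that did. The 4 were *fkbp9*, *ckap4*, *fzd10* and *pkp3*, a desmosomal plakophilin (0.77 against -2.64 by the probe set read).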

How the data were processed

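The array carries 15611 probe sets, of which 120 are controls. Per the study's methods, the authors summarised the arrays by RMA in GeneSpring GX, and the deposited intensities are linear and were not divided by whole embryos. Their lowest values are low for RMA and the cause was not tested. Each array had 1 column, and there were 0 other columns. Here log2 of the intensity of the 15491 other probe sets was fitted with limma 3.58.1 (R 4.3.3), with a mean for each of 4 groups over all 12 arrays, and PNP was contrasted with LE. The number of arrays limits the precision. The spread behind the p-values was pooled over the arrays of all 4 groups and moderated across probe sets, so EF and whole embryos entered it. P-values were adjusted by Benjamini-Hochberg over all probe sets. Probe sets counted as called had to differ by 2-fold as well as have an adjusted p under 0.05, while list members needed the p alone. The fit was tested on simulated data first. Intervals are 95% from the fit.

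Gene names came from the platform annotation, in which 9304 probe sets have 1 symbol, 195 several and 5992 none, and 9227 of the 9304 matched a current RefSeq name (v10.1, used for names only). A gene was read from 1 probe set, that of the study's accession or else the brightest, with L and S copies joined. Entries under other variants of a symbol, as for *wnt5a*, stayed separate. Probe sets said to cross-hybridise are those whose names mark shared probes. The regions and lists were chosen with earlier results of these data known. Genes named include the 15 with the largest difference each way, among called genes whose PNP and LE arrays did not overlap. Also named are the study's markers and cell type markers. From each of 33 lists came up to 4 called members each way and the least different bright member. Other genes were chosen after their values were seen. Alternatives were 6 arrays only, the replicate number as a block, the methods' t-test, an intensity trend, array weights, quantile normalization, median centring, leaving out dim probe sets, other fold limits, leaving out arrays and the mean over a gene's probe sets.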

Additional observations from a re-analysis of the deposited data

Results flagged for a closer look

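The array also carries control probe sets for α-actin, which were left out of the tested set and whose signal in PNP exceeded that in LE on every array. The probe sets named a1Act averaged 8.56 ± 0.13 (SD, n = 3) for the 3′ one, 8.73 ± 0.18 for the middle one and 6.97 ± 0.22 for the 5′ one in PNP, against 2.21 ± 0.54, 3.41 ± 0.33 and 2.49 ± 0.20 in LE. Whole embryos gave 7.98, 8.59 and 6.75, near PNP, and EF gave 4.54, 5.25 and 3.24. The probe sets named a3Act were dimmer in PNP, at 4.18 ± 1.31, 3.01 ± 0.48 and 3.16 ± 0.25 for the 3′, middle and 5′ ones, against 2.24, 2.07 and 2.51 in LE and 7.3, 5.71 and 5.42 in whole embryos. The 3′ one of these rested on PNP 3, at 5.69 against 3.29 and 3.57 on the other PNP arrays.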

How the results depend on the processing

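Against 926 probe sets higher and 1040 lower in PNP, the methods' t-test gave 594 and 881, no fold limit 2020 and 1951, and a 4-fold limit 225 and 464. With 1 array left out the counts ran from 819 (without PNP 1) to 1030 (without PNP 3) and from 963 (without PNP 2) to 1091 (without PNP 3). The remaining alternatives gave 920 to 1007 higher and 995 to 1090 lower. The replicate number as a replicate block gave 920 and 1041. Arrays of the same number deviated together with r of 0.13, -0.03 and 0.21, and those of different numbers with r from -0.22 to 0.13. Whether the numbers pair the samples cannot be told from so few arrays. The block on the 6 arrays alone, chosen after seeing the data, gave 947 and 1056. Of 192 named genes that passed, the t-test lost 29, among them *sox2*, *sox3*, *ncam1*, *dll1*, *hand1* and *otx1*. Leaving out 1 array lost 11 in all, and leaving out PNP 3 and LE 3 together lost 10. With the mean over a gene's probe sets, 7 lost the call (*ckap4*, *ckm*, *fzd10*, *pnhd*, *sdha*, *snap25* and *zic1*), *fkbp9* turned to -0.09, and splicing factors had 14 members higher in place of 9. Among genes that did not pass, the sign turned for *atp6v1a* (-0.08), *fgfr2* (-0.38) and *six3* (0.25) with that mean, for *dsp* under array weights (0.05), quantile normalization (0.03), median centring (0.03) and leaving out PNP 3 and LE 3 together (0.17), and for *hoxa2* under quantile normalization (0.03) and median centring (0.04). With 1 array left out, *atp6v1a* ranged from -0.02 to 0.23, *dsp* from -0.17 to 0.11, *fgfr2* from -0.22 to 0.18, *hoxa2* from -0.16 to 0.11 and *hoxa3* from -0.55 to 0.06. The cause was not tested.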
